A study of Mus musculus with 9 samples.

Results

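The CpG sites of the mitochondrial genome (chrM) were described in bisulfite sequencing data from mouse primordial germ cells, the embryonic precursors of eggs and sperm. They were chosen as every site listed on chrM. The table of the Tet1-null pool listed 242 such sites among 16372728 sites in all, and the table of the WT pool listed 241 among 13730600. All 241 WT positions were also in the Tet1-null table, and the site at position 9365, with 6 reads, was listed for the Tet1-null pool only.

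The study asked how DNA methylation in germ cells of female embryos depends on Tet1, a dioxygenase that oxidises 5-methylcytosine. The Tet1-null pool held 5 libraries of genotype Tet1 -/-, made from 1400 to 4700 cells each, of which 2 were converted with a Sigma kit and 3 with a Zymo kit, with 2 in sequencing run 2 and 3 in run 3. The WT pool held 4 libraries made from 1575 to 5251 cells each, of which 2 were converted with the Sigma kit and 2 with the Zymo kit, with 1 in run 1, 1 in run 2 and 2 in run 3. All were primordial germ cells of strain C57BL/6 at embryonic day 13.5. Because each table pools the libraries of a genotype, every difference below is between 2 pools and has no replicate check, and kit, run and genotype cannot be told apart. Neither the loss of Tet1 nor the cell type was checked from these tables, which hold methylation alone. Intervals are 95% Wilson intervals for a level and 95% Newcombe intervals for a difference. They cover counting error only, because the libraries are pooled. They may be too narrow even for that, because no molecular identifiers mark PCR copies of 1 molecule. Positions are those of mouse build mm9, counted from 1.

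The mitochondrial genome is a small circle present in many copies per cell. It carries genes for subunits of the respiratory chain and for the ribosomal and transfer RNAs that translate them, and a control region from which transcription and replication start. Cytosine methylation of this DNA is generally held to be scarce and its extent is debated, so the share of its cytosines left unconverted is often read as a ceiling on the bisulfite background. Over evolution, pieces of the circle have been copied into the chromosomes, and reads from such copies can be placed on the circle or the reverse. In the RefSeq annotation of build GRCm38.p6 the circle carried 37 genes, of which 13 encode proteins, 2 ribosomal RNAs and 22 transfer RNAs. In order of position, the ribosomal RNA genes come first, followed by ND1, ND2, COX1, COX2, ATP8, ATP6, COX3, ND3, ND4L, ND4, ND5, ND6 and CYTB. As that build differs from that of the tables, sites are given by position and were not assigned to genes.

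Nearly all chrM reads were unmethylated at CpG sites in both pools, and the share that read as methylated was lower in the Tet1-null pool. Of 63081 reads of chrM sites in the Tet1-null pool, 811 were methylated, a level of 1.29% (1.2 to 1.38%). Of 33263 reads in the WT pool, 551 were methylated, a level of 1.66% (1.52 to 1.80%). The difference was -0.371 points (-0.537 to -0.211), a ratio of levels of 0.776, and Fisher's exact test on the pooled reads, two-sided, gave p = 4.9e-06. This p compares these 2 pools and not the genotypes, and it is too small to the extent that 1 read covers several sites. The nuclear chromosomes differed the other way, with 4.16% in the Tet1-null pool and 3.50% in the WT pool, a difference of 0.663 points. The chrM difference minus the nuclear one was -1.03 points (-1.2 to -0.870, from binomial variances). With nuclear sites that reached 10 reads in each pool in place of all nuclear sites, the same quantity changed sign, to 1.87 points (1.63 to 2.10).

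Set against the nuclear level, the chrM level amounted to 30.9% of it in the Tet1-null pool and 47.3% of it in the WT pool. If every methylated chrM read were an unconverted cytosine, the background at CpG sites would be 1.29% of reads in the Tet1-null pool and 1.66% in the WT pool, after the authors' filter on poorly converted reads. Whether nuclear DNA was converted to the same degree was not tested. Incomplete conversion, sequencing error, methylated mitochondrial DNA and reads from nuclear copies cannot be told apart in these levels. Of 372074 nuclear 1 kb windows with 5 or more positions in both pools and 20 or more reads in each, 46.6% lay at or below the chrM level in the Tet1-null pool and 57.1% in the WT pool. Most of those windows had no methylated read at all, which was the case for 45.5% of all windows in the Tet1-null pool and 56.4% in the WT pool. Deep chrM sites stood lower than deep nuclear ones. Among sites that reached 100 reads in each pool, the 199 on chrM had 1.30% in the Tet1-null pool and 1.67% in the WT pool, and the 157 on nuclear chromosomes had 8.59% in the Tet1-null pool and 9.54% in the WT pool. The nuclear sites of that depth are a small and unusual set, since the mean autosomal depth was 2.85 reads in the Tet1-null pool and 2.21 in the WT pool.

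Depth was high on most of the circle. The Tet1-null pool had a median of 281 reads per site, with quartiles of 228 and 317, and ran from 4 reads at position 8562 to 390 at position 963. The WT pool had a median of 151 reads, with quartiles of 122 and 168, and ran from 1 read at position 8562 to 214 at position 14399. Sites with 100 or more reads numbered 231 in the Tet1-null pool and 199 in the WT pool. A single site read 281 times at a level near the chrM level holds only a few methylated reads, so single-site levels are coarse. The mean depth of chrM sites was 91.5 times that of autosomal sites in the Tet1-null pool and 62.5 times in the WT pool. By medians it was 140 times in the Tet1-null pool and 75.5 times in the WT pool, and over positions listed in either pool 105 times in the Tet1-null pool and 84.8 times in the WT pool. Of reads summed over all listed CpG sites, the circle took 0.135% in the Tet1-null pool and 0.109% in the WT pool. A read counts there once for each listed site it covers, so these are not shares of sequenced reads. Mitochondrial copies per cell, cells per library and losses before sequencing cannot be told apart in this ratio.

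**Figure D1:**
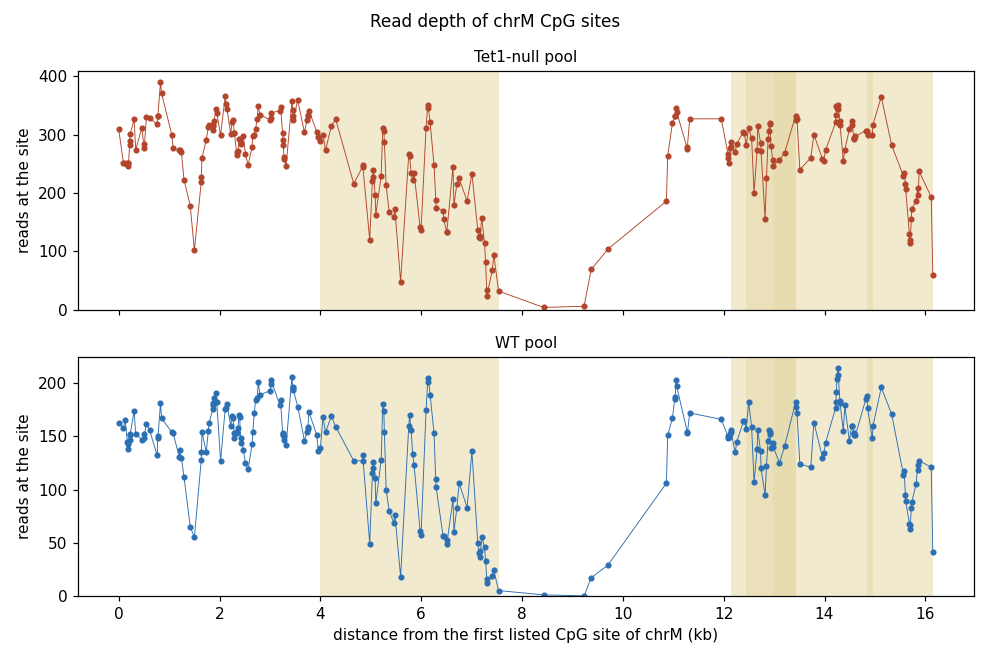
Reads at each chrM CpG site (vertical axis) against its distance in kilobases from the first listed site (horizontal axis), for the Tet1-null pool above and the WT pool below. Shaded stretches are those whose CpG spacing is repeated by a nuclear stretch, and depth is lowest between 7 and 10 kb, where the 18 sites average 95.4 reads in the Tet1-null pool and 35.8 in the WT pool.

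Both pools had the same uneven profile. Across the 241 positions listed in both, Pearson's r of depth was 0.949 and Spearman's rho 0.901, as a description over sites that share reads with their neighbours. Depth was lowest from 7 to 10 kb. The 18 sites there averaged 95.4 reads in the Tet1-null pool (4 to 233) and 35.8 in the WT pool (0 to 136), whereas the 136 sites before averaged 275 reads in the Tet1-null pool and 144 in the WT pool. The 88 sites after averaged 273 reads in the Tet1-null pool and 147 in the WT pool. This arc also listed few sites, 6.0 per kb against 19.4 per kb before it and 14 per kb after it, and it ends in the largest gap between listed sites, 1159 bases from 9839 to 10998. Among the 3 sites listed in both pools that were shallowest, all within it, position 7438 had 24 reads in the Tet1-null pool and 12 in the WT pool, and position 7669 had 32 reads in the Tet1-null pool and 5 in the WT pool.

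The pools differed more in depth in and beside this arc than elsewhere. Over the 234 sites that reached 20 reads in each pool, the depth ratio of the Tet1-null pool over the WT pool had a median of 1.89. It was lowest at position 16282, at 1.46, and highest at position 7574, at 3.92, where the Tet1-null pool had 94 reads and the WT pool 24. At shallower sites it went up to 6.4, at position 7669 with 32 reads in the Tet1-null pool and 5 in the WT pool. By 1 kb window the ratio lay between 1.70 and 2.03 outside the arc, although the 500 bases just before it had 2.63. It was 2.57 in the window from 7 to 8 kb, 4 in the next, where 1 site held 4 reads in the Tet1-null pool and 1 in the WT pool, and 3.89 in the window from 9 to 10 kb. Narrower dips lay elsewhere. Position 1635 had 102 reads in the Tet1-null pool and 55 in the WT pool, and position 5726 had 48 reads in the Tet1-null pool and 18 in the WT pool. Position 15833 had 115 reads in the Tet1-null pool and 63 in the WT pool.

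Single sites were mostly at 0 to 3%. The median site level was 1.06% in the Tet1-null pool and 1.35% in the WT pool, and no methylated read was seen at 24 sites of the Tet1-null pool and 40 of the WT pool. Levels of 5% or more were found at 3 Tet1-null sites and 8 WT sites, and of 10% or more at 1 site, the same in both pools. The higher WT count came mostly from shallow sites. Among the 199 sites that reached 100 reads in each pool, 2 had 5% or more in the Tet1-null pool and 3 in the WT pool. At 3 positions that reached 100 reads in each pool, 354, 2430 and 11184, no read was methylated in either. The deepest of these, position 11184, had 0 of 346 reads in the Tet1-null pool and 0 of 203 in the WT pool, which allows up to 1.10% in the Tet1-null pool and 1.86% in the WT pool. Of the 234 sites that reached 20 reads in each pool, 127 had a lower level in the Tet1-null pool, 99 a higher one and 8 an equal one, with a median difference of -0.173 points.

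**Figure D2:**
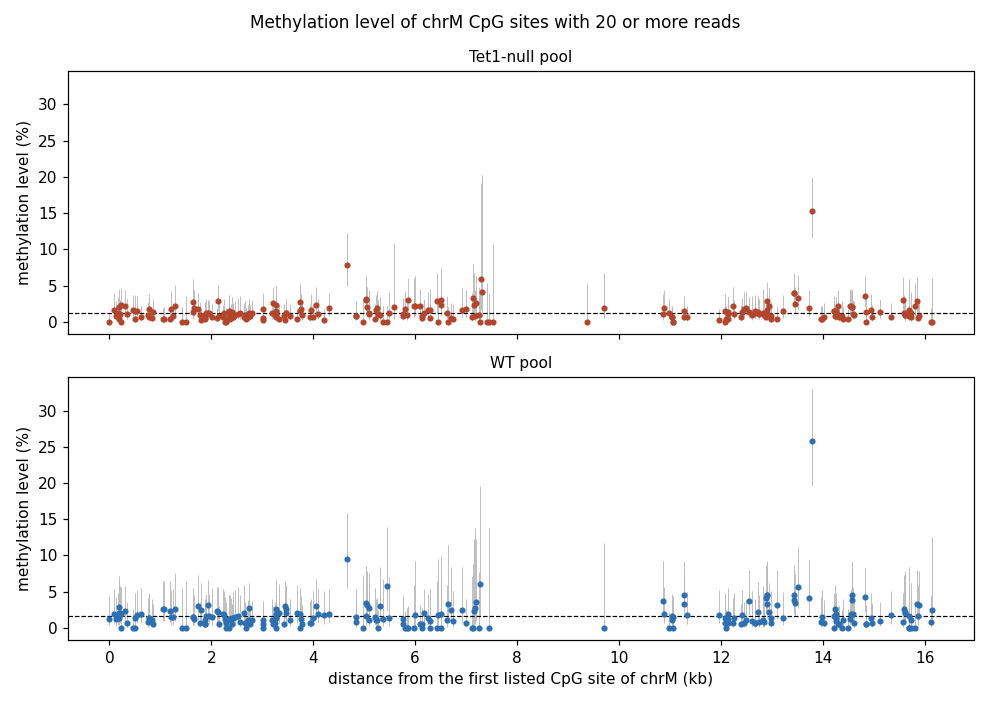
Methylation level (vertical axis, % of reads) of each chrM site with 20 or more reads, against distance in kilobases from the first listed site, in the Tet1-null pool above and the WT pool below. Grey lines are Wilson intervals and the dashed line is the pool's chrM level (1.29% in the Tet1-null pool, 1.66% in the WT pool). One site stands above all others in both pools, at 15.3% in the Tet1-null pool and 25.8% in the WT pool.

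The site levels spread more than counting alone gives, and 1 site carried over 50% of the excess. Over sites with 10 or more reads, Pearson's chi-square per degree of freedom against a single level was 3.64 in the Tet1-null pool (240 sites) and 3.81 in the WT pool (239 sites), where binomial counting gives about 1. The site at position 13924 made up 53.6% of the chi-square in the Tet1-null pool and 64.2% in the WT pool. Without it the ratio was 1.78 in the Tet1-null pool and 1.46 in the WT pool, and without the site at 4796 as well it was 1.48 in the Tet1-null pool and 1.27 in the WT pool. Leaving out the highest 5% of sites brought them to 1.19 in the Tet1-null pool and 1.12 in the WT pool. As a beta-binomial correlation between reads of the same site, the spread was 0.00423 in the Tet1-null pool and 0.00676 in the WT pool, and without position 13924 it was 0.00228 in the Tet1-null pool and 0.00264 in the WT pool. Sites with no methylated read numbered 22 in the Tet1-null pool against 14.8 under the binomial, and 38 in the WT pool against 32.9. With the level taken without position 13924 the binomial gave 16.5 in the Tet1-null pool and 36.9 in the WT pool, so that the WT count lay close to it. Sites with 10 or more methylated reads numbered 6 against 1.30 in the Tet1-null pool and 2 against 0.103 in the WT pool.

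**Figure D3:**
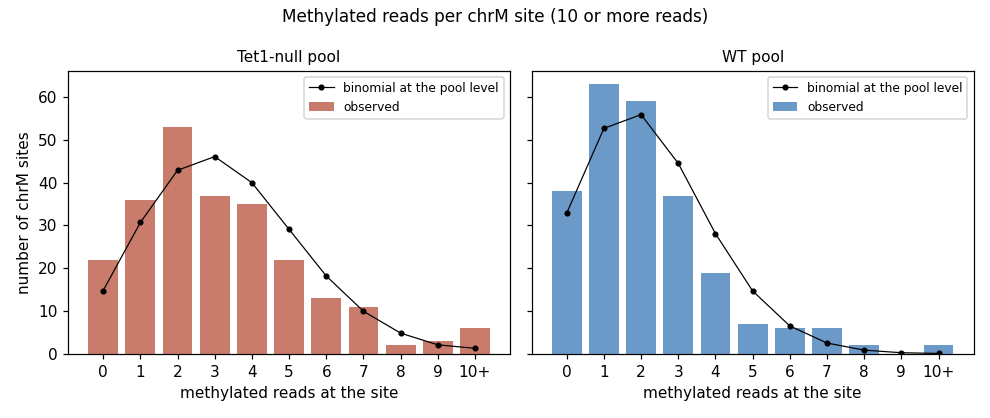
Number of chrM sites of 10 or more reads (vertical axis) by their number of methylated reads (horizontal axis), as bars, with the number a binomial at the pool's chrM level gives as a line, for the Tet1-null pool left and the WT pool right. In both pools the bars exceed the line at 0 and at 10 or more methylated reads.

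The sites that were high in 1 pool tended to be high in the other. A site was counted as high where the lower bound of its interval exceeded the chrM level of its pool, among those 234 sites. There were 15 high sites in the Tet1-null pool and 16 in the WT pool, and 7 were in both sets, which is 7 of 15 Tet1-null sites and 7 of 16 WT sites. Sites chosen in the WT pool had a level of 3.46% (2.96 to 4.05%) in the Tet1-null pool, where the other 218 sites had 1.12% (1.04 to 1.21%). Without position 13924 the chosen sites still had 2.57% (2.13 to 3.11%). Sites chosen in the Tet1-null pool had 4.94% (4.12 to 5.92%) in the WT pool, where the other 219 had 1.42% (1.29 to 1.55%), and 3.30% (2.61 to 4.16%) without position 13924. The set was small enough that the correlation of levels between pools rested on it. Pearson's r over the 234 sites was 0.705, with Spearman's rho of 0.158. It was 0.360 without position 13924, 0.216 without position 4796 as well, and -0.00375 without the highest 5% of sites, which were chosen on the levels in both pools. Sites below the chrM level, with the upper bound of the interval under it, numbered 6 in the Tet1-null pool and 0 in the WT pool. The WT count could only be 0, since no WT site was deep enough. Even 0 of 203 WT reads, at position 11184, had an upper bound of 1.86%, above the WT level of 1.66%, and no WT site exceeded 214 reads. The 2 counts are therefore not comparable between pools.

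**Figure D4:**
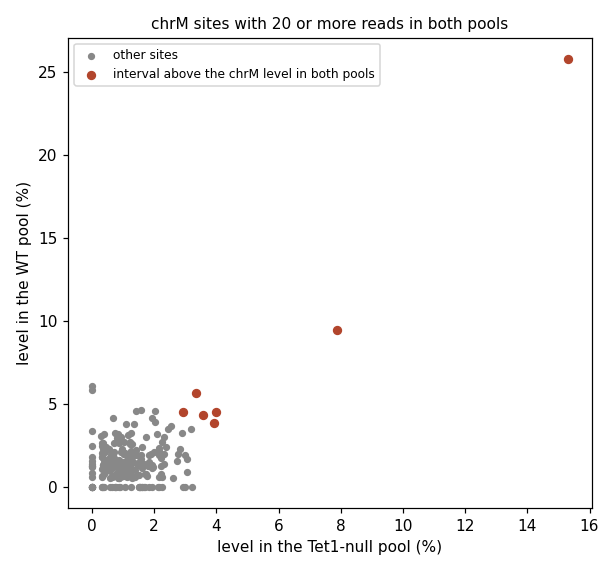
Level of each chrM site that reached 20 reads in each pool, in the Tet1-null pool (horizontal axis, %) and the WT pool (vertical axis, %). The 7 sites high in both pools are in red, 5 of them between 2.93% and 5.65% in either pool, and the other sites, in grey, form a cloud with little slope.

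Position 13924 was the highest site of both pools. It had 46 methylated of 300 reads in the Tet1-null pool, 15.3% (11.7 to 19.8%), and 42 of 163 in the WT pool, 25.8% (19.7 to 33.0%). The difference was -10.4 points (-18.5 to -2.84), with p = 0.00892 by Fisher's exact test and 0.387 after Benjamini-Hochberg adjustment over all sites tested. Position 4796 was next, with 17 of 216 reads in the Tet1-null pool, 7.87% (4.97 to 12.2%), and 12 of 127 in the WT pool, 9.45% (5.49 to 15.8%). The nearest other listed site was 176 bases away. Position 13559 had 3.92% in the Tet1-null pool and 3.85% in the WT pool, and position 13569, 10 bases on, had 4.0% in the Tet1-null pool and 4.49% in the WT pool. Position 13645 had 3.33% in the Tet1-null pool and 5.65% in the WT pool. Position 13028 had 2.93% in the Tet1-null pool and 4.49% in the WT pool, and position 14954 had 3.58% in the Tet1-null pool and 4.32% in the WT pool. Just outside the rule were position 13588, with 2.45% in the Tet1-null pool and 3.49% in the WT pool, and position 5167, with 3.17% in the Tet1-null pool and 3.45% in the WT pool.

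Beside position 13924 the level was higher on 1 side, in an arc chosen after its values were seen. The 5 sites just before it, from 13559 to 13861, which include 3 of the 7 high sites, together had 3.17% (2.39 to 4.19%) in the Tet1-null pool and 4.25% (3.04 to 5.90%) in the WT pool. All 14 other sites within 500 bases on either side had 1.76% (1.41 to 2.2%) in the Tet1-null pool and 2.29% (1.76 to 2.97%) in the WT pool. Over pairs of sites up to 20 bases apart, the correlation of levels was 0.302 in the Tet1-null pool and 0.461 in the WT pool (114 pairs). Such neighbours are often covered by the same read. When 1 site was taken from the Tet1-null pool and its neighbour from the WT pool, which share no read, it was 0.282. At 21 to 100 bases the values were 0.113 in the Tet1-null pool, 0.0641 in the WT pool and 0.0781 across pools (369 pairs).

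After adjustment no single chrM site was called as different between the pools. At the minimum of 10 reads, so few sites were called on any chromosome that this tells little about chrM. Of 239 chrM sites that reached 10 reads in each pool, Fisher's exact test with adjustment over all 7990 such sites of the tables called 0, where 0.0501% of all sites tested were called, all of them lower in the Tet1-null pool, and 0.0516% of the nuclear ones. At an unadjusted p under 0.05 there were 8, all lower in the Tet1-null pool, or 3.35% of chrM sites against 6.26% of nuclear sites. Both sets differ in level and depth, so these shares are not on equal terms. The smallest adjusted p, 0.371, was at position 5588, with 0 of 159 reads methylated in the Tet1-null pool and 4 of 69 in the WT pool. With a minimum of 20 reads per pool the test also called 0 on chrM, against 1.67% of all 2755 sites tested. With a minimum of 5 reads it called 0 of 218314 sites on any chromosome, so its 0 on chrM tells nothing about chrM. Intervals were wide where depth was low, as at position 7412, with 0 of 82 reads methylated in the Tet1-null pool and 2 of 33 in the WT pool, where the difference was -6.06 points (-19.6 to 0.203). The largest positive differences were small, up to 3.23 points at position 7276 (4 of 124 reads in the Tet1-null pool, 0 of 40 in the WT pool, interval -5.75 to 8.0).

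By 1 kb window, 10 of the 13 chrM windows tested had a lower level in the Tet1-null pool, 3 a higher one, and 1 was called by Fisher's exact test adjusted over 372087 windows, where 0.174% of all windows tested were called in either direction, 0.0715% as lower and 0.102% as higher. Of nuclear windows alone 0.173% were called. At an unadjusted p under 0.05 by Fisher's exact test there were 4 chrM windows, or 30.8%, all lower in the Tet1-null pool. The share of nuclear windows was 4.48%, at a far lower depth. The called window ran from 13001 to 14000 and had the highest level in both pools. It had 127 of 4329 reads methylated in the Tet1-null pool, 2.93% (2.47 to 3.48%), and 112 of 2237 in the WT pool, 5.01% (4.18 to 5.99%). The difference was -2.07 points (-3.16 to -1.08), with p = 3.7e-05 and an adjusted p of 0.0294 by Fisher's exact test. Without position 13924 the window had 2.01% in the Tet1-null pool and 3.38% in the WT pool, with an adjusted p of 0.268, and neither 500 base part of it was called (adjusted p of 0.148 and 0.327). By stretches of 4 kb the difference between pools was below 0 throughout, and whether the stretches differ from each other was not tested. It was -0.310 points (-0.545 to -0.0898) from the start of the numbering, -0.0622 (-0.451 to 0.295) in the next, -1.01 (-1.80 to -0.368) in the next with 14 sites, -0.492 (-0.820 to -0.183) up to 16 kb, and -1.67 (-4.06 to -0.120) over the 3 sites beyond.

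Parts of the circle had nuclear look-alikes in the tables themselves. Stretches of CpG sites on the chromosomes were searched for the spacing of 15 consecutive chrM sites. There were 5 such stretches, on chromosomes 2, 4, 12 and 13, and 131 of the 242 chrM positions lay within the arcs they repeat. The longest was on chromosome 2, from 22442825 to 22446359 and inverted relative to the circle, where 47 of its 55 listed positions fell on chrM sites between 4135 and 7669. The stretches on chromosomes 4 (2 stretches, 79648327 to 79650844), 12 (98298941 to 98300245) and 13 (85266006 to 85267284, inverted) repeated arcs between 12281 and the last listed site, 16282.

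**Figure D5:**
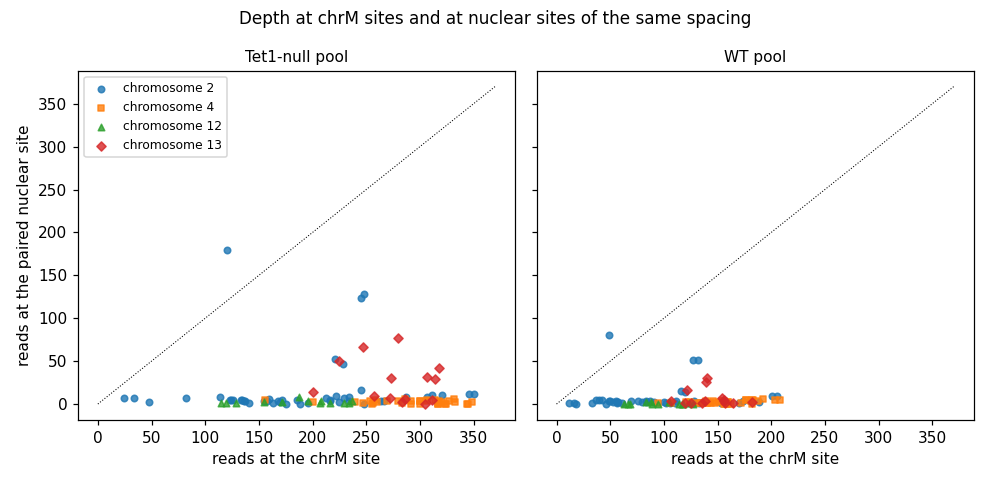
Reads at the nuclear site (vertical axis) against reads at the chrM site of the same spacing (horizontal axis), in the Tet1-null pool left and the WT pool right, by chromosome. Most nuclear sites lie near 0 reads, and 1 site on chromosome 2 lies above the dotted line of equal depth in both pools, with 179 reads in the Tet1-null pool and 80 in the WT pool.

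Most of the paired nuclear sites were shallow and a few were deep. Of 108 paired nuclear sites, 96 had fewer than 20 reads in the Tet1-null pool, with medians of 3.0 reads in the Tet1-null pool and 2.0 in the WT pool. The other 12 had 29 to 179 reads in the Tet1-null pool and 4 to 80 in the WT pool. The deepest, position 22445381 on chromosome 2, had 179 reads in the Tet1-null pool and 80 in the WT pool. Its partner, chrM position 5113, is a local dip, with 120 reads in the Tet1-null pool and 49 in the WT pool. The 12 deep nuclear sites were methylated at 1.75% (1.06 to 2.86%) in the Tet1-null pool and 1.65% (0.707 to 3.8%) in the WT pool, intervals that include the chrM level of each pool. The 96 shallow ones had 2.67% (1.45 to 4.84%) in the Tet1-null pool and 6.57% (3.88 to 10.9%) in the WT pool, both above that level.

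A further 2 places were found among the 157 nuclear sites that reached 100 reads in each pool, by spacing over shorter distances. On chromosome 6, 7 consecutive positions from 9839952 to 9840108 fell exactly on chrM positions from 15856 down to 15700. They had 127 to 280 reads in the Tet1-null pool and 43 to 147 in the WT pool. The 7 chrM sites had 115 to 234 reads in the Tet1-null pool and 63 to 117 in the WT pool. At the dip of chrM at 15833, the nuclear partner had 234 reads in the Tet1-null pool and 122 in the WT pool, and the reads of both sites summed to 349 in the Tet1-null pool and 185 in the WT pool. The level on chromosome 6 was 2.03% (1.42 to 2.88%) in the Tet1-null pool and 1.69% (0.971 to 2.93%) in the WT pool. On chromosome 1, position 24619576 had 322 reads, 3 methylated, in the Tet1-null pool and 175 reads, 1 methylated, in the WT pool, while the 6 other positions listed around it had 17 reads or fewer in either pool. Its gaps to both neighbours, 1159 and 335 bases, repeat in inverted order those of chrM position 9839, which are 1159 and 334 bases. The next gap, 140 bases, equals that between chrM positions 9505 and 9365, which lie within the shallow arc. The full reach of this match along the circle was not tested. Position 9839 of chrM, at the edge of the shallow arc, had 104 reads in the Tet1-null pool and 29 in the WT pool. Reads at this site and its chromosome 1 partner summed to 426 in the Tet1-null pool and 204 in the WT pool. How reads that fit both places were assigned is not given in the sources used here, and its part in the depth profile was not tested.

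The chrM sites within the arcs that the 5 nuclear stretches repeat had a higher level than those outside them in both pools. In the Tet1-null pool it was 1.57% (1.44 to 1.72%) inside and 1.01% (0.902 to 1.12%) outside, a difference of 0.570 points (0.394 to 0.747). In the WT pool it was 1.95% (1.75 to 2.18%) inside and 1.37% (1.21 to 1.56%) outside, a difference of 0.581 points (0.307 to 0.859). Without position 13924, which lies inside, the differences were 0.435 points (0.264 to 0.609) in the Tet1-null pool and 0.340 points (0.0747 to 0.608) in the WT pool. Outside the arcs the Tet1-null level was still below the WT level. Positions 9505, 9839 and 10998, matched by spacing on chromosome 1, were counted as outside. All 7 sites high in both pools lay inside the arcs, as did 131 of all 242 sites. Depth itself went with level only weakly: without position 13924, sites in 4 depth classes of about equal size, from shallow to deep, had 1.46, 1.18, 1.09 and 1.27% in the Tet1-null pool and 1.63, 1.59, 1.62 and 1.39% in the WT pool. The part of nuclear copies in the chrM level was not tested.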

How the data were processed

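Bisulfite sequencing after Tn5 fragmentation gave, per the labels' protocols, the reads behind 1 table per genotype, in which the authors pooled the libraries. Per site, each deposited table gives the methylation level as a fraction and the count of reads. Multiplied, these gave whole numbers of methylated reads (tolerance 0.0005 per read) for 100% of sites. Per the submitters' processing notes bedtools and build mm9 were used. Not given in the sources used here are the aligner, its treatment of reads that fit several places and of duplicates, and whether both strands of a site were merged. The authors' deposited filter removed every read with more than 1.2% of its bases being C outside CpG, which can lower chrM levels and any background read from them.

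Levels were summed reads, with Wilson intervals, and differences were Tet1-null minus WT, with Newcombe intervals. Fisher's exact test, two-sided, was run per site (10 or more reads in both pools) and per 1 kb window (5 or more positions in both pools, 20 or more reads in each) over the whole tables. Calls had a Benjamini-Hochberg adjusted p below 0.05. The tests were checked on simulated data with independent reads and planted changes far larger than the chrM differences. That check does not bear on small differences or on reads shared by neighbouring sites. Nuclear spacing matches needed 9 or more hits over 15 chrM sites that made up at least 50% of the positions listed in either, or, around nuclear sites of 100 or more reads, 4 or more hits within 150 bases that made up at least 60%, or both gaps of over 100 bases equal within 1 base. The sites named were the 10 highest by the lower of both pools' levels, the 5 largest differences in each direction, the 3 deepest and the 3 shallowest, and any called, of which a part is printed. Sites with no methylated read in either pool, local dips and paired nuclear sites were named after their values were seen. The members and lists were chosen with earlier results of these data known. Tools were Python 3.11.15, numpy 2.4.6, pandas 2.3.3, scipy 1.17.1 and matplotlib 3.10.9. Alternatives changed the sites used, the read minimum, the window size and the measure. Sequences around the sites are not printed, since no genome of the build was used.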

Additional observations from a re-analysis of the deposited data

Results flagged for a closer look

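The difference between the pools ran opposite ways on chrM and on the nuclear chromosomes as a whole. Over all sites, the Tet1-null pool was lower on chrM and higher on the nuclear chromosomes, and the difference between both differences was -1.03 points, with a counting interval of -1.2 to -0.870. Against nuclear sites that reached 10 reads in each pool, where the Tet1-null pool had 9.08% and the WT pool 11.3%, it was 1.87 points. It has no replicate check.

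Outside chrM, 157 nuclear sites reached 100 reads in each pool, so a depth like that of the circle was not particular to the 2 short stretches below. These stretches were picked out around such sites by their CpG spacing. Position 24619576 on chromosome 1 had 322 reads in the Tet1-null pool and 175 in the WT pool beside neighbours with 17 reads or fewer. Positions 9839952 to 9840108 on chromosome 6 reached 280 reads in the Tet1-null pool and 147 in the WT pool. Mean autosomal depth was 2.85 reads in the Tet1-null pool and 2.21 in the WT pool. The spacing of CpG sites in both stretches repeats that of chrM, and the part of reads from the circle in them was not tested.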

How the results depend on the processing

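Settings without the highest site or sites, outside the repeated arcs and over positions listed in either pool were chosen after seeing the data. Of 61 alternatives, 34 were labelled as leaving the result the same, 23 as moved, 3 as weaker and 1 as reversed. The same meant within the main interval for a level, and an interval apart from 0 for the chrM difference. For other results it meant within a set tolerance or threshold. The difference of mean site levels, which had no interval, was counted as the same. The 34 include a setting that could give no other count, a minimum difference of 20 points for the site test, which called 0 without it. The chrM difference stayed below 0 with an interval below 0 in each alternative that gave one, from -0.290 to -0.444 points. The levels moved with the arc used. In the Tet1-null pool the chrM level was 1.11% without the highest 5% of sites and 1.46% without positions up to 4 kb. It was 1.14% without those above 12 kb and 1.01% outside the arcs that the 5 nuclear stretches repeat. In the WT pool the level was 1.40%, 1.88%, 1.43% and 1.37% under the same settings. The chi-square per degree of freedom was 1.19, 1.78 and 1.48 in the Tet1-null pool and 1.12, 1.46 and 1.27 in the WT pool without the highest 5%, the highest site and the 2 highest sites. The correlation between pools was 0.158 as Spearman's rho, 0.36 without the highest site and 0.216 without the 2 highest, so it rests on those sites. With 500 base windows, which hold fewer reads, 0 windows were called on chrM, against 0.495% of all 135148 windows tested. A minimum difference of 20 points also left 0. No tested 1 kb window of chrM exceeded 5.01% in either pool, so that setting could give no other count. Reads per site in the shallowest window of 5 or more sites were 122 in the Tet1-null pool and 50 in the WT pool with 500 base windows, against 110 in the Tet1-null pool and 42.7 in the WT pool with 1 kb windows. The depth of chrM relative to autosomes was 140 in the Tet1-null pool and 75.5 in the WT pool by medians, and 105 in the Tet1-null pool and 84.8 in the WT pool over positions listed in either pool. The chrM difference minus the nuclear one reversed to 1.87 points with nuclear sites of 10 or more reads in both pools, and the cause was not tested. No paired analysis was possible because each table pools the libraries of a genotype, and for the same reason no library could be left out. Single sites hold at most 390 reads in the Tet1-null pool and 214 in the WT pool, which leaves wide intervals: at position 13559, with 332 reads in the Tet1-null pool and 182 in the WT pool, that of the difference ran from -4.13 to 3.39 points.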
